A study of Homo sapiens with 6 samples.

Results

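The genes described here are 10 genes of the actin filament and of the smooth muscle contractile apparatus in LX-2, a cell line made from human hepatic stellate cells. They are the actins ACTA2, ACTB, ACTG1 and ACTG2, the myosin light chain gene MYL9, the tropomyosins TPM1 and TPM2, and the actin-binding proteins CALD1, CNN1 and TAGLN. They were picked by name from the 33900 genes of the expression table as actins, tropomyosins and contractile proteins of the myofibroblast, and all 10 were found. RNA sequencing compared 3 samples treated with rhSema3C, recombinant human Sema3C, at 300 ng/ml for 48 h with 3 control samples given PBS. Cells of both groups were wild type by their label and were grown in DMEM with fetal bovine serum. The labels call the replicates biological without saying how they were separated, so the p-values measure the spread between these samples.

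Quiescent stellate cells store vitamin A in the liver, and after injury they turn into myofibroblasts, which lay down collagen and contract. Contraction needs actin filaments, on which myosin pulls once its regulatory light chain is phosphorylated, while tropomyosin, caldesmon and calponin lie along the filament and control that access. Many genes of this apparatus are targets of serum response factor (SRF), which binds a sequence called the CArG box and is switched on by its cofactors of the MRTF family when free actin monomers become scarce. ACTA2 encodes α-smooth muscle actin, the usual marker of an activated stellate cell, whereas ACTB and ACTG1 encode the cytoplasmic β- and γ-actins that nearly every cell makes, and ACTG2 encodes the γ-actin of visceral smooth muscle.

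The 4 actin genes are close copies of each other, so the sequence that separates them decides how well reads can be told apart. The first 60 coding bases of each are shown, taken from GENCODE 29 transcripts on GRCh38, with capitals at bases that are not matched in the other member of the pair (ACTB with ACTG1, and ACTA2 with ACTG2) once the coding sequences are aligned.
ACTB: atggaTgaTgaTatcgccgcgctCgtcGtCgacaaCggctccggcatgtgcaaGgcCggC
ACTG1: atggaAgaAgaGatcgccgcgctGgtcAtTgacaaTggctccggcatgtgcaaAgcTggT
ACTA2: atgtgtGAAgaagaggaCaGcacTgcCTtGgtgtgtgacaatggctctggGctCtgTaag
ACTG2: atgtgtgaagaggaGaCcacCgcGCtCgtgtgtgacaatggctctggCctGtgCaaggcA
In this stretch 10 bases of ACTB and 10 of ACTG1 were unmatched, against 12 of ACTA2 and 10 of ACTG2. Over the whole coding sequence, ACTB and ACTG1 were identical at 1029 of 1128 aligned bases (91.2%), and ACTA2 and ACTG2 at 85.0%. Identity between a cytoplasmic and a smooth muscle actin was 82.2% to 84.3%. Of all stretches of 50 bases in the transcript of ACTB, 21 of 1872 (1.12%) occurred exactly in a transcript of another actin gene, and 10 of 1962 (0.51%) did for ACTG1. No stretch of 50 bases was shared for ACTA2 or ACTG2, and none of 100 bases for any of the 4 genes. The search covered the protein-coding transcripts of these 4 genes and of the sarcomeric actin genes ACTA1 and ACTC1. ACTBL2 and actin pseudogenes were not searched, so whether such a stretch matches a single gene was not tested. How the authors treated reads that map to several genes is not given in the sources used here.

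CArG boxes were looked for in the RefSeq promoter windows (GRCh38.p14, 250 bases before to 50 after a start site). Many genes of this apparatus are known SRF targets, so a share above that of all windows was likely in advance. The search was made with the members' changes known. The table held 12 windows for 7 of the 10 members, with none for ACTB, MYL9 and TAGLN. A complete CArG box, which reads the same on both strands as a pattern, was found in 2 of the 12 windows (16.7%), those of ACTG2 and ACTG1, against 1.29% of all 35116 windows and 1.16% of the 14421 windows of genes tested here. ACTA2 held a pair of matches with 1 mismatch each. They are shown with 10 bases on either side, read on the strand of the gene, with the match in capitals.
ACTG2, 110 bases before the start, chr2:73892888-73892917, plus strand: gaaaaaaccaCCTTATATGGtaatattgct
ACTG2, 73 bases before the start, chr2:73892925-73892954, plus strand: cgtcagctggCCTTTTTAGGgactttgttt
ACTG1, 94 bases before the start, chr17:81512874-81512903, minus strand: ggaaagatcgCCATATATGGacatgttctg
ACTA2, 121 bases before the start, chr10:88952875-88952904, minus strand: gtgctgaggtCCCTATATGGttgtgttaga
ACTA2, 71 bases before the start, chr10:88952825-88952854, minus strand: tgtctttgctCCTTGTTTGGgaagcaagtg
CArG boxes with 1 mismatch occurred in 2 of the 12 windows (16.7%), of ACTA2 and CALD1, and in 6.94% of all windows. The MCAT element, CATTCC or GGAATG, bound by TEAD factors, occurred in 3 of the 12 windows (25%), 2 of CALD1 and 1 of ACTA2, and in 14% of all windows. Neither motif was in the windows of TPM1, TPM2 and CNN1 or in the other ACTA2 window. A match is a description of these letters and not a binding site shown here. Some genes gave several windows, so the 12 are not independent, and the part of SRF in the falls was not tested. ACTG2 and ACTG1, the members with complete boxes, had log2 fold changes of -2.65 and -1.08, and TPM2, without a match in its windows, had -1.10.

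The libraries held 68267808 to 89245585 counts on genes each. Expression is given as CPM, counts scaled to a TMM-normalised library size, and as FPKM where genes are compared with each other, since FPKM is per length of transcript. Of the genes in the table, 14178 had a mean FPKM of at least 0.5 and were tested, all 10 members among them. Adjusted p-values are those of edgeR's quasi-likelihood test with Benjamini-Hochberg adjustment over these genes. Stellate cell genes were present in all 6 samples, with VIM at 814 to 1070 FPKM, COL1A1 at 58.1 to 103, COL3A1 at 18.4 to 23.1 and PDGFRB at 4.35 to 5.61. These ranges span both groups, and VIM, COL1A1 and COL3A1 were lower with rhSema3C. Other genes of that list were at or near 0, with DES at 0 to 0.0557 FPKM, LRAT at up to 0.00573, DCN at up to 0.0114 and COL1A2 at 0.0576 to 0.144.

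All 10 members fell with rhSema3C, where 30.6% of all genes tested were lower and 31.7% were higher at an adjusted p below 0.05. In each of the 10, every rhSema3C sample lay below every PBS sample, as it did in 33.3% of all genes tested. 7 of the 10 were lower by more than 2-fold, against 2.06% of all genes. Since the members were chosen with earlier results of these data known, these shares describe them and are not a test. The members' median log2 fold change was -1.09, beside 0.024 over all genes tested, 50% of which lay between -0.32 and 0.36. Among the 14178 genes ordered from the deepest fall, 3 members were in the lowest 1%, 7 in the lowest 2% and 9 in the lowest 5%, with ACTA2 the exception. All 10 together took 1.06%, 1.12% and 1.10% of all counts in the PBS samples and 0.550%, 0.522% and 0.539% in the treated ones, each in the order of replicates 1 to 3, which holds for all values given per sample. In bulk samples, fewer cells that express a gene and less RNA per cell cannot be told apart.

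The size of the fall moved with the scaling between samples, since TMM factors were 0.958 to 0.968 in the PBS samples and 1.03 to 1.04 in the rhSema3C samples. With library size alone the median of all genes tested moved to 0.13, with scaling on 12 reference genes to 0.17, with limma on log2(FPKM + 0.1) to 0.12 and with limma on log2(TPM + 1) to 0.23. Relative to the median of all genes, the members' median lay between -1.18 and -0.997 under every setting tried, with -1.12 in the main one. The split of calls moved too, with 4490 genes higher and 4339 lower in the main fit, 5641 and 3433 with library size alone, and 6934 and 2428 with TPM. Of the members, 4 rather than 7 passed the 2-fold mark with library size alone, and 3 with TPM.

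**Figure D1:**
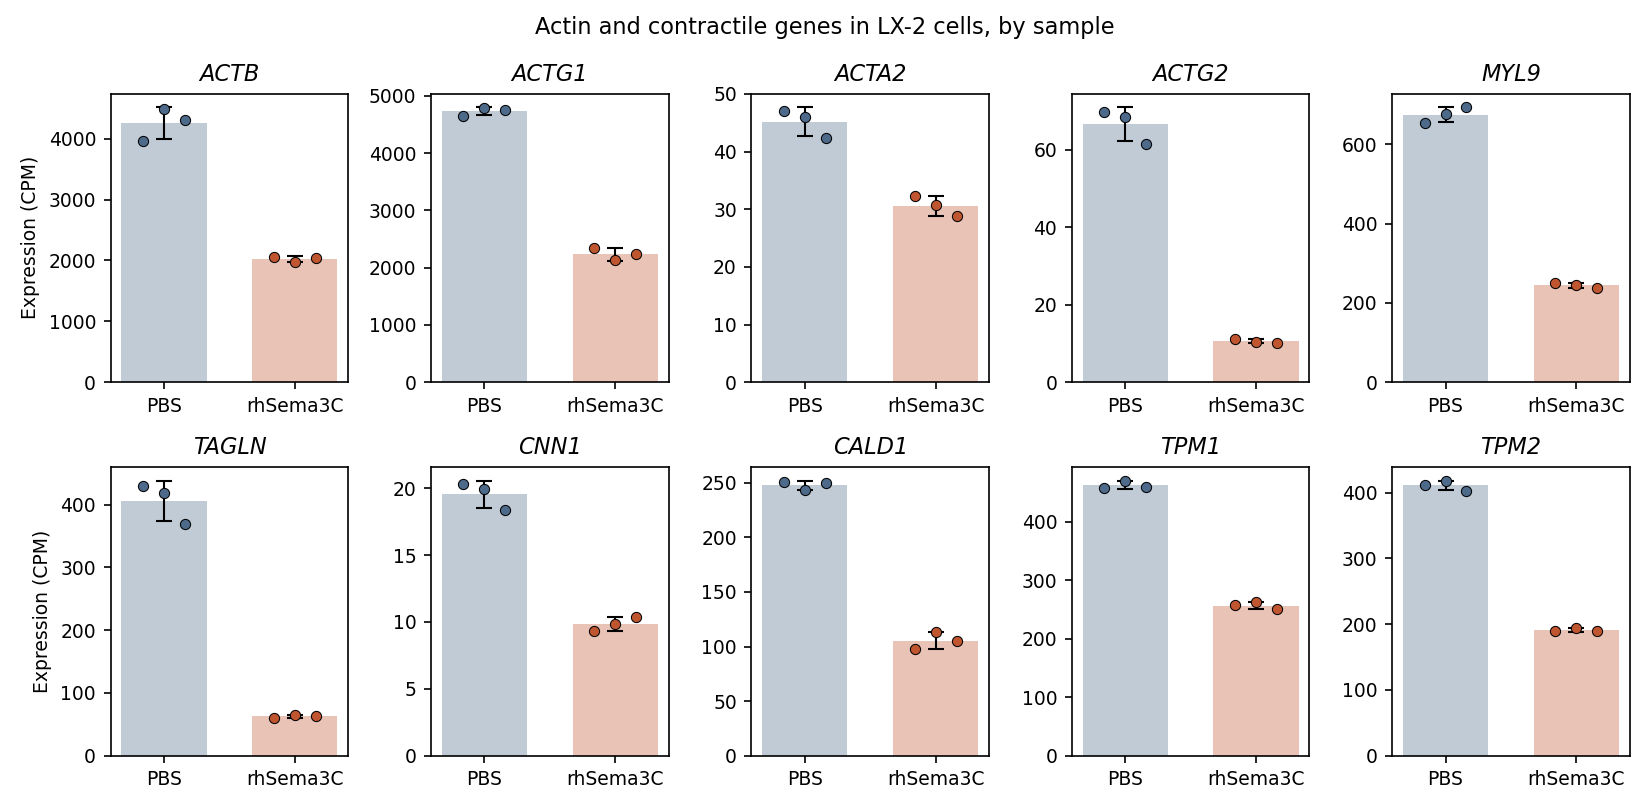
CPM of each of the 10 genes in the 3 PBS and 3 rhSema3C samples, on linear axes that start at 0, with 1 point for each sample, a bar for the group mean and whiskers for the SD. In every gene the rhSema3C points lie below the PBS points, with the widest gaps in proportion for TAGLN and ACTG2 and the narrowest for ACTA2.

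The cytoplasmic actins were the most abundant members and fell by nearly equal amounts. ACTG1 (chr17:81509971-81514640, minus strand, GRCh38 as in the table) had 4654, 4791 and 4746 CPM in the PBS samples and 2351, 2125 and 2230 CPM with rhSema3C. PBS samples lay within a narrow band, and the highest rhSema3C sample was far below it. ACTG1 fell by 1.08 on the log2 scale (SE 0.042, adjusted p = 7.1e-09), which left 47.3% of the PBS mean. ACTB (chr7:5526409-5563902, minus strand) had 3968, 4483 and 4315 CPM with PBS and 2065, 1968 and 2046 CPM with rhSema3C. PBS replicate 1 was the lowest of its group but still above every treated sample. The fall of ACTB was 1.07 on the log2 scale, or a log2 fold change of -1.07 with a 95% interval from -1.17 to -0.97 (SE 0.047, adjusted p = 1.6e-08). By table rank of FPKM, ACTG1 went from place 15 to 16 in the PBS samples to place 22 to 24, and ACTB from place 23 to 26 to place 45 to 46.

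The smooth muscle actins fell by unequal amounts. ACTG2 (chr2:73892314-73919865, plus strand) had 69.8, 68.3 and 61.5 CPM with PBS and 11.3, 10.4 and 10.1 CPM with rhSema3C. Its log2 fold change was -2.65 (SE 0.075, 95% interval -2.82 to -2.49, adjusted p = 8.9e-10), and 15.9% of the PBS mean was left. ACTG2 thus had one of the deepest falls in the table, at place 13 of 14178.

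ACTA2 (chr10:88935074-88991339, minus strand) had 47.1, 46.1 and 42.3 CPM with PBS and 32.4, 30.7 and 28.9 CPM with rhSema3C. Groups did not overlap, but the lowest PBS sample and the highest treated sample stood closer in proportion than for any other member. The log2 fold change was -0.56 (SE 0.069, 95% interval -0.71 to -0.41, adjusted p = 3.1e-05), with 67.8% of the PBS mean left, and over the settings tried it ranged from -0.60 to -0.33. ACTA2 was thereby the member with the smallest fall, and 11.7% of the genes tested fell further. Its locus overlaps FAS, a death receptor gene on the opposite strand, by 809 bases. FAS had 1321, 911 and 1129 counts with PBS and 1902, 2377 and 2040 with rhSema3C, beside 4052, 3227 and 2799 for ACTA2 with PBS and 2803, 2820 and 2418 with rhSema3C. STAMBPL1, also on the opposite strand, had 842 to 1087 counts with PBS and 1049 to 1424 with rhSema3C. Whether the counting used strand is not given in the sources used here, and the part of these overlaps in the ACTA2 counts was not tested.

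Within the actins, almost all mRNA was that of the β- and γ-cytoplasmic genes in both groups. Summed actin FPKM was 2389, 2522 and 2495 in the PBS samples and 1300, 1202 and 1259 with rhSema3C. ACTB made up 36.9% ± 1.12 (SD, n = 3) of it with PBS and 37.2% ± 0.656 with rhSema3C, and ACTG1 61.9% ± 1.05 and 61.8% ± 0.649, so the balance of the pair differed by less than the spread between replicates (exact permutation p = 0.7 and 0.9). Per length, ACTG1 mRNA in the PBS samples was 106.8 times and ACTB mRNA 63.7 times that of ACTA2. The share of ACTA2 was 0.58% ± 0.0435 with PBS and 0.831% ± 0.0444 with rhSema3C, with no overlap, and that of ACTG2 was 0.667% ± 0.0557 and 0.224% ± 0.00881. Both gave a two-sided exact permutation p of 0.1, the smallest that 3 samples against 3 allow, or 0.2 adjusted over the 4 actins. ACTG2 mRNA stood above ACTA2 mRNA per length in the PBS samples and below it with rhSema3C.

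MYL9 encodes the myosin regulatory light chain of smooth muscle and of non-muscle cells, whose phosphorylation starts contraction. MYL9 (chr20:36541497-36551447, plus strand) had 655.0, 675.3 and 693.1 CPM with PBS and 250.7, 244.4 and 237.9 CPM with rhSema3C. Every treated sample was far below the PBS samples, which differed little among themselves. The log2 fold change was -1.46 (SE 0.042, 95% interval -1.56 to -1.37, adjusted p = 8.9e-10), with 36.2% of the PBS mean left. MYL12A and MYL12B, which encode the closely related regulatory light chains of non-muscle myosin, moved the other way. MYL12A rose from a mean of 409.6 to 553.8 CPM (log2 fold change 0.44, SE 0.038, adjusted p = 2.4e-06), and MYL12B from 375.9 to 448.4 CPM (0.25, SE 0.045, adjusted p = 4.7e-04).

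Summed over the 3 regulatory light chain genes, FPKM was 555.6, 544.4 and 573.1 with PBS and 532.5, 548.2 and 521.5 with rhSema3C, so that the ranges of the sums overlapped on that scale. FPKM carries no TMM factors, and the sums were not compared with them. In CPM, which carries them, the mean of MYL9 went from 674.5 to 244.3, beside 409.6 to 553.8 for MYL12A and 375.9 to 448.4 for MYL12B. Inside the FPKM sum the share of MYL9 was 40.6% ± 0.871 (SD, n = 3) with PBS and 16.5% ± 0.428 with rhSema3C, MYL12A was at 22.8% and 34.6%, and MYL12B was at 36.6% and 48.9%. None of these shares overlapped between the groups (exact permutation p = 0.1, the smallest possible), and the light chain and calponin shares were added after the values of single genes were seen. Of the essential light chains, which bind the neck of the myosin head, MYL6 fell from 1128 to 540.0 CPM (log2 fold change -1.06, adjusted p = 1.1e-08) and MYL6B from 99.7 to 74.1 CPM (-0.43, adjusted p = 1.1e-04).

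**Figure D2:**
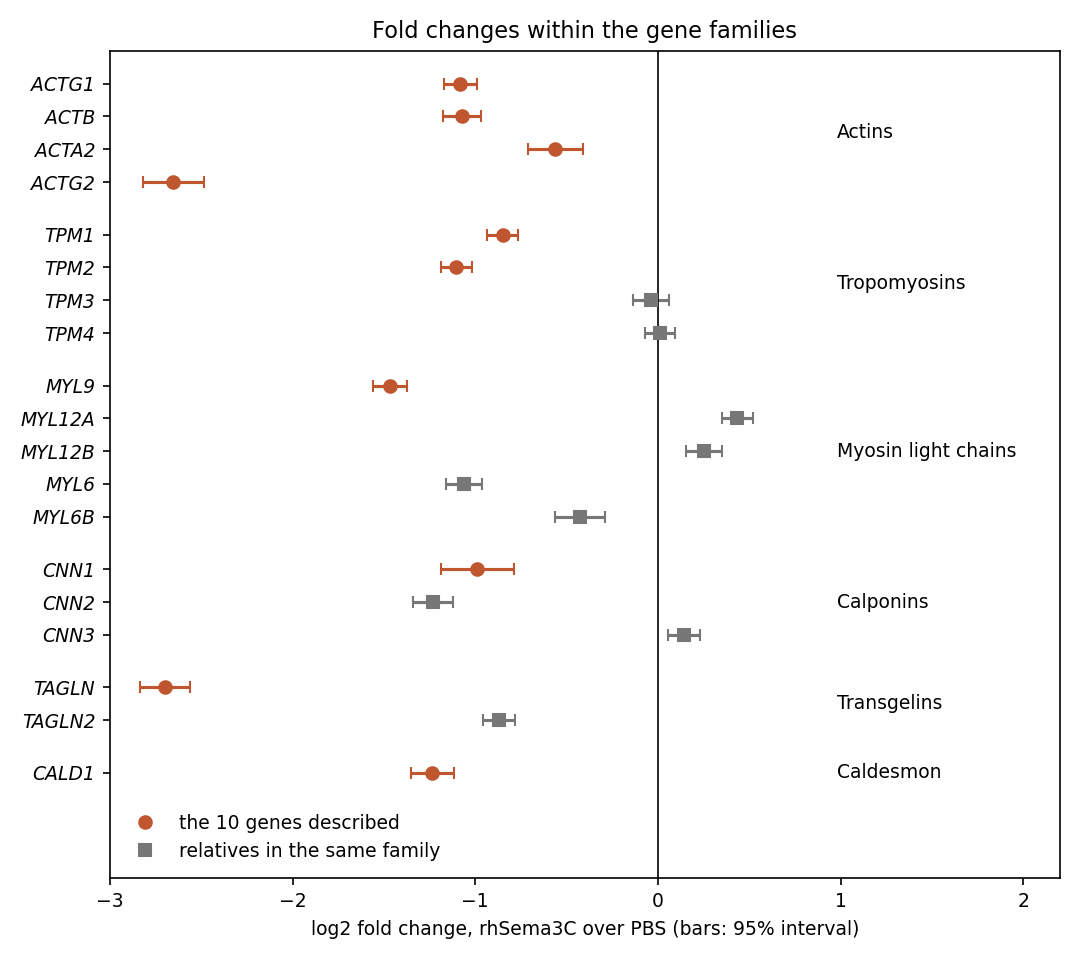
Log2 fold change of rhSema3C over PBS for the members and the tested genes of the same families, grouped by family, with circles for the members, squares for their relatives and bars for the 95% interval of the edgeR fit. The members all lie below 0, whereas TPM3 and TPM4 lie near 0, on a side that depends on the scaling, and MYL12A, MYL12B and CNN3 lie above it.

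Tropomyosins are coiled proteins that run along the actin filament and decide which myosins and binding proteins can reach it. TPM2 (chr9:35681992-35690056, minus strand), which encodes β-tropomyosin, had 412.0, 417.6 and 403.2 CPM with PBS and 190.1, 194.3 and 189.4 CPM with rhSema3C. TPM1 (chr15:63042632-63071915, plus strand), which encodes α-tropomyosin, had 458.0, 469.6 and 458.7 CPM with PBS and 256.9, 262.2 and 250.1 CPM with rhSema3C. In both genes the replicates were tight and the groups far apart. TPM2 fell by 1.10 on the log2 scale (SE 0.039, adjusted p = 3.5e-09), to 46.5% of the PBS mean. TPM1 fell by 0.85 (SE 0.039, adjusted p = 2.3e-08), to 55.5%. TPM1-AS, an antisense RNA within the TPM1 locus, had 440 to 704 counts with PBS and 266 to 351 with rhSema3C, and without a known strand setting its reads and those of TPM1 cannot be told apart.

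The other tropomyosin genes did not pass the test in the main fit. TPM3 had 530.5 CPM with PBS and 517.0 CPM with rhSema3C (log2 fold change -0.04, SE 0.044, adjusted p = 0.48), and TPM4 had 877.4 and 884.9 CPM (0.01, SE 0.037, adjusted p = 0.79). The sign of both depended on the scaling, with log2 fold changes from -0.08 to 0.19 for TPM3 and from -0.0023 to 0.24 for TPM4 over the settings, highest with TPM. Summed tropomyosin FPKM was 255.2, 252.4 and 251.9 with PBS and 188.6, 186.0 and 185.1 with rhSema3C. With PBS, TPM2 made up 48.1% ± 0.560 (SD, n = 3) of it and TPM1 12.5% ± 0.173, and with rhSema3C 32.6% ± 0.627 and 10.1% ± 0.223. TPM4 was at 26.4% ± 0.521 and then at 38.8% ± 0.424, so that per length it stood above TPM2 in the treated samples, and TPM3 was at 13.0% and 18.5%. All 4 shares were without overlap between the groups, at the smallest exact permutation p of 0.1. Counted per read and not per length, TPM4 was the leading tropomyosin in both groups, with 38.5% of the counts with PBS and 47.9% with rhSema3C. The difference in the TPM2 share was then -7.67 percentage points in place of -15.5, that of TPM1 -6.40 in place of -2.40, that of TPM3 4.69 in place of 5.47 and that of TPM4 9.38 in place of 12.4.

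**Figure D3:**
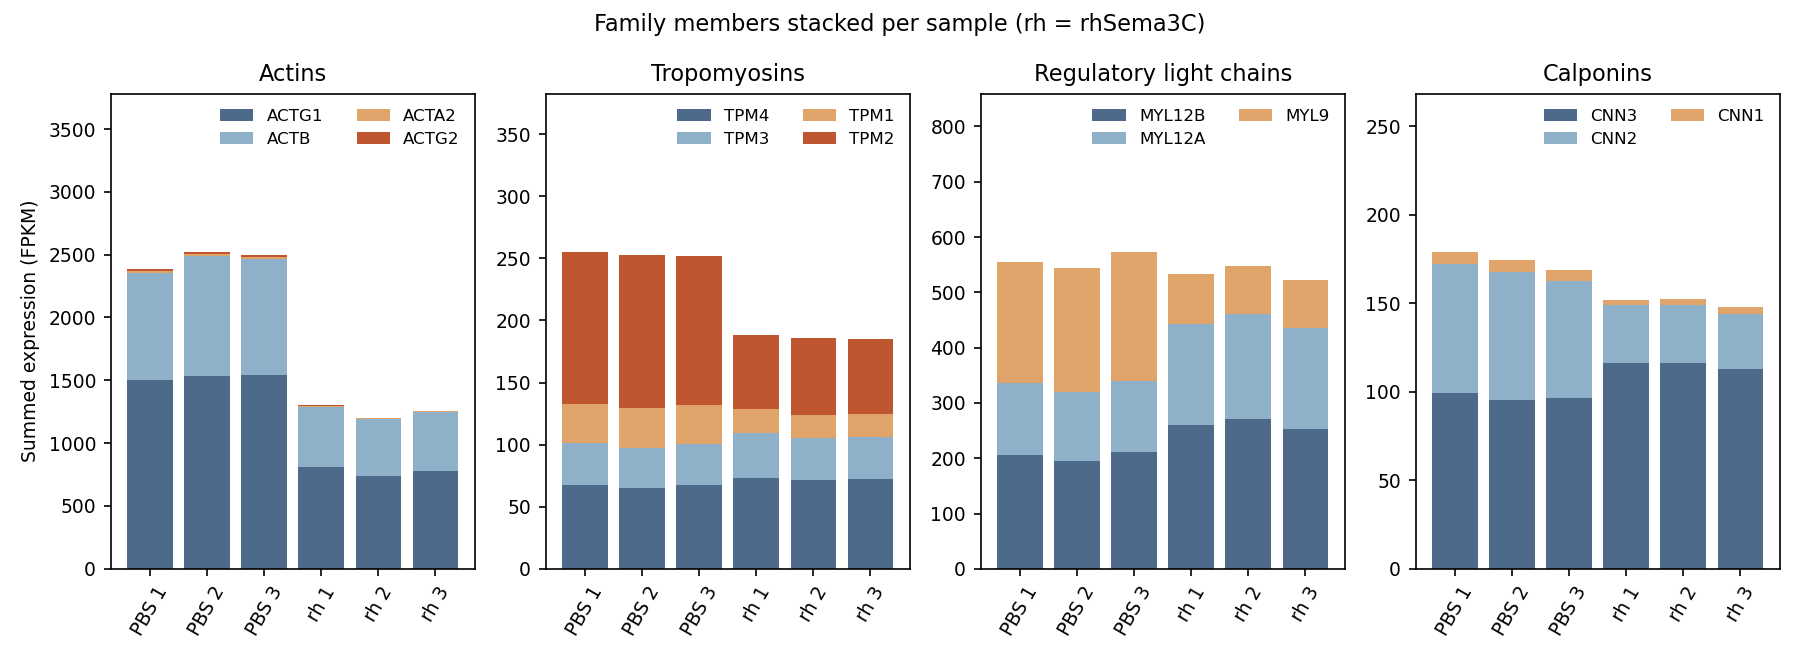
FPKM per sample stacked by gene for the actins, the tropomyosins, the myosin regulatory light chains and the calponins, with each bar 1 sample and each axis starting at 0. Actin and tropomyosin bars are shorter in the 3 rhSema3C samples, while the light chain bars reach 521.5 to 573.1 in all 6 samples, with a thinner MYL9 segment with rhSema3C. FPKM carries no TMM factors, so bar heights are on another scale than the tests.

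TAGLN encodes transgelin (SM22α), an actin-bundling protein of the calponin family and an early marker of smooth muscle. TAGLN (chr11:117199370-117207464, plus strand) had 429.3, 419.2 and 368.9 CPM with PBS and 59.4, 64.3 and 63.8 CPM with rhSema3C. No other member fell as far, with a log2 fold change of -2.70 (SE 0.063, 95% interval -2.84 to -2.56, adjusted p = 2.4e-10) and 15.4% of the PBS mean left. By table rank of FPKM it went from place 642 to 782 in the PBS samples to place 4540 to 4832. PCSK7, a proprotein convertase gene on the opposite strand that overlaps TAGLN by 3128 bases, had 10011, 8714 and 7604 counts with PBS and 6253, 6310 and 6220 with rhSema3C. TAGLN itself had 24386 to 36926 counts with PBS and 5147 to 5908 with rhSema3C, and whether reads were shared between the overlapping genes was not tested. TAGLN2, its relative in non-muscle cells, fell from 856.0 to 468.2 CPM (log2 fold change -0.87, SE 0.040, adjusted p = 2.1e-08).

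CALD1 encodes caldesmon, which holds myosin off the filament until calcium-calmodulin or phosphorylation releases it. CALD1 (chr7:134744252-134970729, plus strand) had 250.5, 243.0 and 249.7 CPM with PBS and 97.9, 113.2 and 104.8 CPM with rhSema3C. Treated samples spread more than the controls and still stayed well below them. The log2 fold change was -1.23 (SE 0.053, 95% interval -1.35 to -1.12, adjusted p = 1.3e-08), with 42.5% of the PBS mean left.

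CNN1 encodes the basic calponin of differentiated smooth muscle, which damps the myosin ATPase. CNN1 (chr19:11538767-11550322, plus strand) had 20.3, 19.9 and 18.4 CPM with PBS and 9.33, 9.81 and 10.4 CPM with rhSema3C. It was the least abundant member with PBS, at a mean of 6.48 FPKM, and fell by 0.99 on the log2 scale (SE 0.091, 95% interval -1.19 to -0.79, adjusted p = 3.2e-06). CNN2, which is widely expressed, fell from 272.1 to 115.8 CPM (log2 fold change -1.23, SE 0.050, adjusted p = 8.8e-09), while CNN3, the acidic calponin, rose from 286.4 to 316.6 CPM (0.14, SE 0.039, adjusted p = 0.0074). As shares of summed calponin FPKM, CNN1 was at 3.73% ± 0.0802 (SD, n = 3) with PBS and 2.33% ± 0.168 with rhSema3C, CNN2 at 40.5% and 21.3%, and CNN3 at 55.8% and 76.3% (exact permutation p = 0.1 for each).

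In order of FPKM, the members in the PBS samples were ACTG1 (1527), ACTB (911), MYL9 (226), TPM2 (122), TAGLN (58.4), TPM1 (31.6), CALD1 (23.7), ACTG2 (16.4), ACTA2 (14.3) and CNN1 (6.48), as means of 3 samples. Neighbours in that order did not overlap between samples. With rhSema3C the first 4 places were unchanged at 775, 466, 88.1 and 60.8 FPKM, followed by TPM1 (18.8), CALD1 (10.8), ACTA2 (10.4), TAGLN (9.66), CNN1 (3.50) and ACTG2 (2.80). There CALD1 and ACTA2 overlapped between samples, as did ACTA2 and TAGLN, and their order was within the spread.

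Among the PBS samples, the members did not all vary together. ACTA2, ACTG2, TAGLN and CNN1 were each highest in replicate 1 and lowest in replicate 3, and MYL9 was lowest in replicate 1 and highest in replicate 3. Coefficients of variation within a group were 1.39% to 7.97%, and the median over the 10 genes, relative to the PBS mean on the log2 scale, was 0.01, 0.03 and -0.02 in the PBS samples and -1.09, -1.12 and -1.10 in the rhSema3C samples. All 3 treated samples thus stood at a like distance from the controls.

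ACTB and GAPDH are often used to scale qRT-PCR, and both fell here, so the members were also expressed relative to them. GAPDH, a glycolysis enzyme, had a log2 fold change of -0.45 (SE 0.043, adjusted p = 5.2e-06). Relative to ACTB, the log2 ratio of ACTA2 counts was -6.56 ± 0.143 (SD, n = 3) with PBS and -6.05 ± 0.0848 with rhSema3C, a difference of 0.51 upward without overlap (exact permutation p = 0.1), whereas the CPM of ACTA2 was lower. Relative to GAPDH, ACTA2 was at -7.77, -7.82 and -7.79 with PBS and at -7.82, -7.88 and -8.03 with rhSema3C, where the groups overlapped (difference -0.12, exact permutation p = 0.2). Relative to the summed counts of 12 genes in common use as references, the ACTA2 difference was -0.41, without overlap. GAPDH had the most counts in that sum, with 884295 in PBS replicate 1, where RPLP0, a ribosomal protein gene, came next with 186166. The 12 genes had a median log2 fold change of 0.028, with 3 higher, 3 lower and 6 not called, B2M being the highest at 0.68. That balance depended on the scaling, since 7 were higher and 3 lower with library size alone, with limma on FPKM, with the filter at a mean FPKM of 5 and with scaling on the 12 genes themselves, and 9 higher and 2 lower with TPM.

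For the other members the reference gene changed the size of the difference, and for TPM1 and CNN1 its sign as well. Relative to ACTB, TAGLN differed by -1.63, ACTG2 by -1.58 and MYL9 by -0.40, and TPM1 by 0.22, each without overlap (exact permutation p = 0.1, or 0.18 adjusted over the 9 genes). ACTG1 (-0.01), TPM2 (-0.03), CNN1 (0.08) and CALD1 (-0.17) overlapped between groups in their ratio to ACTB, at exact permutation p-values from 0.2 to 0.8. Relative to GAPDH, the 9 members other than ACTA2 differed by -2.25 (TAGLN) to -0.41 (TPM1), all without overlap. Relative to the 12 genes, all 10 differed by -2.55 (TAGLN) to -0.41 (ACTA2), again without overlap.

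**Figure D4:**
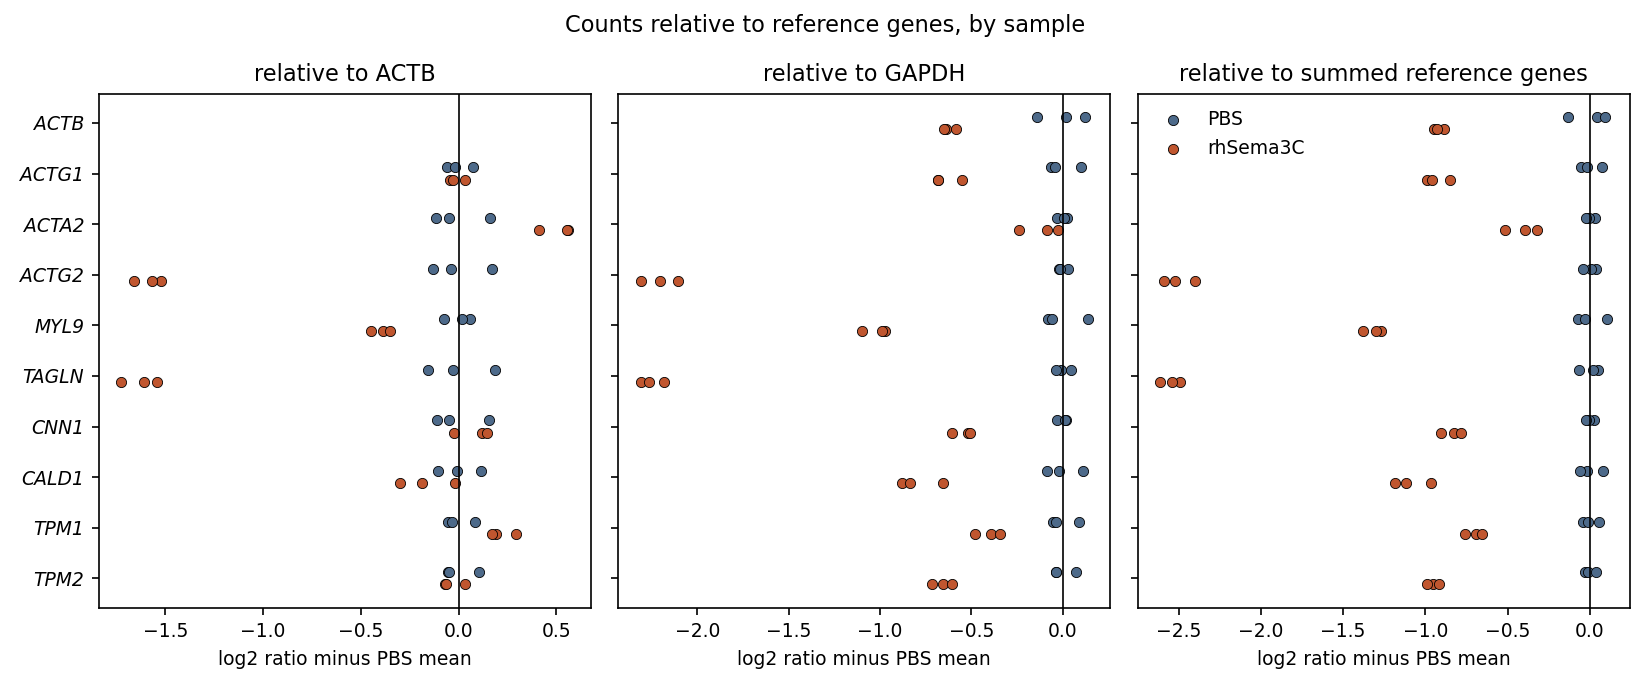
Log2 ratio of each member's counts to those of ACTB, of GAPDH and of 12 summed reference genes, as the distance from the PBS mean, in 3 panels with 1 point for each sample. The rhSema3C points of ACTA2 lie around 0.51 relative to ACTB, around -0.12 relative to GAPDH and around -0.41 relative to the 12 genes, while those of TAGLN and ACTG2 lie far to the left in all panels.

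Other genes of the same systems were counted as whole lists, where 30.6% of all genes tested were lower and 31.7% higher. Some genes were counted in several lists. MYOCD and FHL2 were in the smooth muscle list and the SRF list. MYLK and PPP1R14A were in the smooth muscle and myosin phosphorylation lists, and VCL was in the adhesion plaque and SRF lists. Of 16 further smooth muscle genes 13 were tested, of which 9 were lower, 1 was higher and 3 were not called, with a median log2 fold change of -0.41. MYOCD, the smooth muscle coactivator of SRF, fell from 16.4 to 6.87 CPM (log2 fold change -1.25, adjusted p = 1.1e-06). The LIM protein genes CSRP1 (-0.88) and PDLIM7 (-0.79) and the smoothelin gene SMTN (-0.62) also fell, FHL1, another LIM protein gene, rose (0.67), and CSRP2 had a value of 0.04 (adjusted p = 0.67). MYLK, the kinase that phosphorylates the regulatory light chain, had a log2 fold change of -0.26 (adjusted p = 9.4e-04) in the main fit, but -0.12 (adjusted p = 0.14) with scaling on reference genes and -0.04 (adjusted p = 0.63) with TPM. MYH11, the myosin heavy chain of mature smooth muscle, was at 0.027 to 0.057 FPKM, while SMTN had a mean of 23.7 FPKM with PBS. Of the sarcomeric actins, ACTA1 was at 0 to 0.0876 and ACTC1 at 0.166 to 0.290 FPKM.

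Of 13 genes of non-muscle myosin, filament crosslinkers and adhesion plaques, 11 were lower, 1 was higher and 1 was not called, with a median of -0.53. Among all genes tested, 30.6% were lower and 31.7% higher. FSCN1, which bundles filaments, fell from 218 to 82.6 CPM (-1.40, adjusted p = 6.1e-09), and ACTN4, the non-muscle α-actinin, from 1164 to 509.0 CPM (-1.19, adjusted p = 2.4e-08). FLNC (-0.90), ZYX (-0.81) and PXN (-0.77), of the filamin, zyxin and paxillin genes, fell as well. FLNA, a filamin gene and the most abundant of the list per length in the PBS samples, had a log2 fold change of -0.33 (adjusted p = 1.3e-04) in the main fit and -0.10 (adjusted p = 0.15) with TPM. The heavy chain gene MYH10 had 147.0 CPM with PBS and 142 CPM with rhSema3C (-0.05, adjusted p = 0.29), and its sign depended on the scaling.

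Genes of filament assembly and turnover were called in both directions, as were the genes tested as a whole, of which 31.7% were higher and 30.6% lower. Of 18 tested, 8 were higher, 6 lower and 4 not called, with a median of -0.02, and with TPM 10 were higher and 3 lower. CFL1, the severing protein cofilin, fell from 2593.5 to 1354 CPM (-0.94, adjusted p = 7.4e-09), PFN1, the monomer-binding profilin, from 1379.7 to 811 CPM (-0.77, adjusted p = 4.0e-08), and the formin gene DIAPH1 fell as well (-0.57). DIAPH3, another formin gene, was at -0.35 (adjusted p = 0.0047), but at -0.20 (adjusted p = 0.10) with scaling on reference genes and -0.12 (adjusted p = 0.27) with TPM. TMSB4X, which sequesters actin monomers, rose by 0.36 (adjusted p = 2.3e-04). ACTR3, of the ARP2/3 complex that branches filaments, was at 0.02 (adjusted p = 0.73) and CFL2, the muscle cofilin, at -0.06 (adjusted p = 0.32), and both took the other sign under some settings.

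Of 15 genes listed for myosin phosphorylation, among them the cofilin kinase genes LIMK1 and LIMK2, 7 were lower, 3 higher and 5 not called. Their median was -0.12, beside 30.6% lower and 31.7% higher among all genes tested. The GTPase gene RHOA was among those lower (-0.12, adjusted p = 0.047). That call was lost under most settings, such as library size alone (-0.01, adjusted p = 0.82) and the replicate block (-0.12, adjusted p = 0.071). It was also lost in most fits with 1 sample left out, and the value was 0.11 with TPM. With library size alone 6 were lower and 5 higher, and with TPM or with scaling on reference genes 5 were lower and 5 higher. The phosphatase inhibitor PPP1R14B (-0.66), the cofilin kinases LIMK1 (-0.58) and LIMK2 (-0.51) and the GTPase RHOC (-0.42) fell, and PPP1CB, the catalytic subunit of myosin phosphatase, rose (0.44, adjusted p = 1.1e-04). CIT (-0.01, adjusted p = 0.88) and ROCK2 (-0.03, adjusted p = 0.75), both protein kinase genes, did not pass the test and changed sign under some scalings.

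In the list of SRF, its cofactors and their targets, all 13 genes passed the test, 11 lower and 2 higher, with a median of -0.47. Over all genes tested the shares were 30.6% lower and 31.7% higher. CCN2, a matricellular growth factor, fell from 167 to 31.6 CPM (-2.40, adjusted p = 6.8e-11), CCN1 from 667 to 290.4 CPM (-1.20, adjusted p = 4.6e-09), and FOS from 20.6 to 11.5 CPM (-0.84, adjusted p = 8.8e-05). SRF itself had 104.3, 117.7 and 101.9 CPM with PBS and 69.2, 64.4 and 66.4 CPM with rhSema3C, and fell by 0.69 (SE 0.059, adjusted p = 1.7e-06). ELK4, which competes with the MRTFs for SRF, rose from 18.6 to 34.0 CPM (0.87, adjusted p = 1.8e-06). The cofactor genes themselves differed in direction, with MRTFA at -0.21 (adjusted p = 0.016), a call lost with library size alone (-0.10, adjusted p = 0.20), without PBS replicate 2 (-0.18, adjusted p = 0.058) and without PBS replicate 3 (-0.19, adjusted p = 0.059), and a value above 0 with TPM, and MRTFB at 0.26 (adjusted p = 0.012). Members of this list and of the list of smooth muscle genes were chosen with earlier results of these data known, so the counts are a description.

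**Figure D5:**
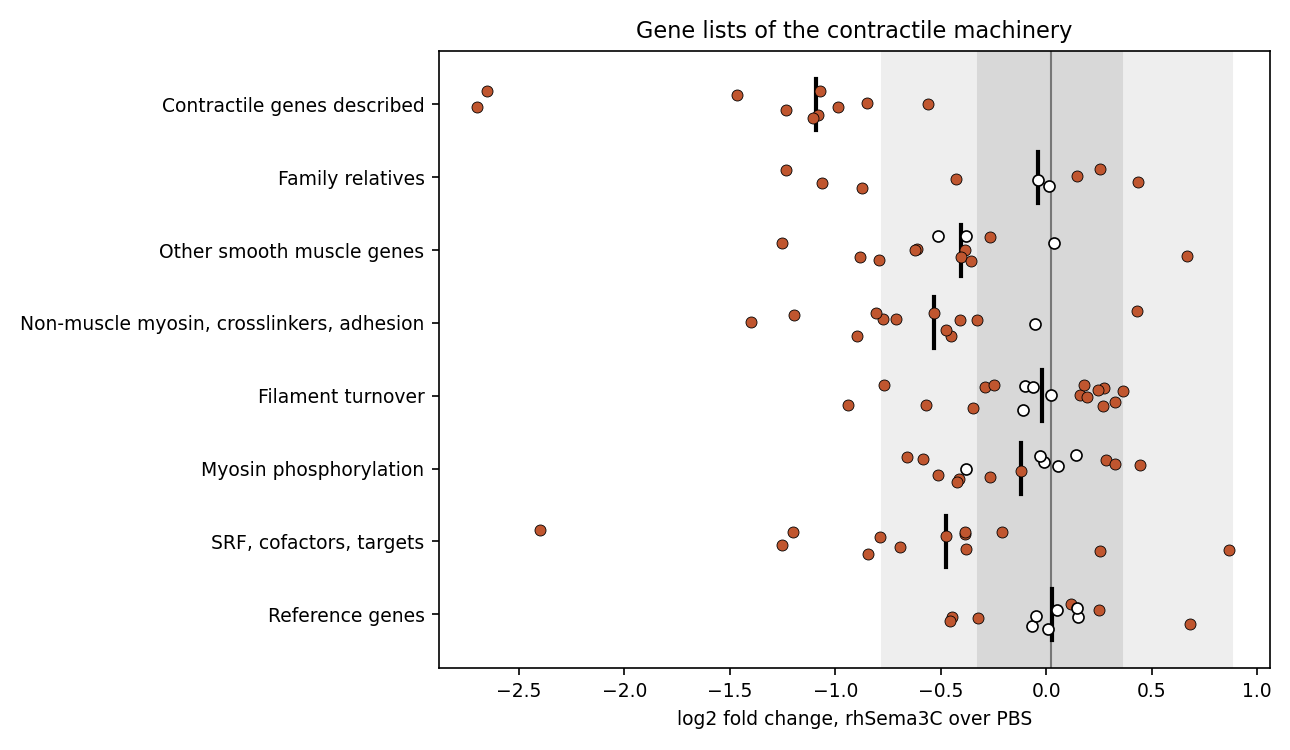
Log2 fold change of every tested gene in the members, their family relatives and the related lists, with 1 point per gene, open where the adjusted p was not below 0.05, and a bar at the list's median. The grey line marks the median of all genes tested and the shaded bands their inner 50% and 90%. The members' median lies at -1.09, those of the other lists between -0.53 and 0.028, and the line for all genes at 0.024.

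Markers of other cell types were low or did not define a cell type. ALB, PTPRC, CDH5 and EPCAM, which mark hepatocytes, leukocytes, endothelium and epithelium, reached at most 0.0469 FPKM in any sample. Summed marker FPKM ranged over 2.67 to 3.19 with PBS and 3.52 to 4.18 with rhSema3C for the hepatocyte list (1 of 6 tested and higher), and over 1.47 to 1.88 and 1.94 to 2.36 for the endothelial list (2 of 5 tested, none called). VWF of that list, below the filter on low genes, had 87, 71 and 88 counts with PBS and 606, 513 and 653 with rhSema3C, and was called higher when no filter was used (log2 fold change 2.59, adjusted p = 1.2e-05), and the part of this in the members' falls was not tested. For the leukocyte list it ranged over 95.3 to 104.0 and 67.5 to 73.2 (2 of 7 tested and lower, mostly CD68), and for the epithelial list over 119.8 to 129.5 and 76.8 to 78.0 (3 of 6 tested, 2 lower, mostly KRT8 and KRT18). Stellate cell genes summed to 1160 to 1216 FPKM with PBS and 915.4 to 974.9 with rhSema3C (7 of 13 tested, 4 lower and 1 higher). Those lower were THY1 (log2 fold change -0.96), COL1A1 (-0.78), VIM (-0.41) and COL3A1 (-0.36), and HAND2 was higher (0.60). PDGFRB (0.09) and LUM (0.14) were not called. Mitochondrial genes took 4.75% to 5.42% of the counts with PBS and 3.73% to 3.93% with rhSema3C, and the part of this in the members' falls was not tested.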

How the data were processed

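RNA from LX-2 cells was sequenced by the authors on a NovaSeq 6000 after an mRNA library kit, 3 samples per group, and their methods name Cufflinks and cuffmerge. For 33900 genes the authors deposited raw counts in whole numbers together with FPKM, which is scaled to transcript length and library size. The aligner, the counter, its strand setting and the build are not given in the sources used here, and the coordinates lie on GRCh38. Samples were grouped by their labels. The deposited counts were tested with edgeR 4.0.16 (R 4.3.3; TMM, glmQLFit and glmQLFTest, no covariates) over the 14178 genes whose mean FPKM reached 0.5, with Benjamini-Hochberg adjustment at 0.05. Shares and ratios were compared by two-sided exact permutation tests over samples. The fit was tested on simulated data.

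The members and lists were chosen with earlier results of these data known. Named genes were the members, all tested family relatives and, from each other list, up to 5 genes with the largest change among those called and up to 2 with the smallest. SRF, RHOA, RPLP0, the defining cell type markers and the genes named as shared between lists fall outside that rule and were named after their values were seen. A few single genes of the lists are counted but not reported by name. Alternatives used DESeq2 1.42.0 (size factors, and its test), limma 3.58.1 on log2(FPKM + 1), log2(FPKM + 0.1) and log2(TPM + 1), library size alone, scaling without the members, no filter, a filter at a mean FPKM of 5, replicate number as a block, and leaving out every sample in turn. Scaling on 12 reference genes was added after the data were seen. TPM is FPKM rescaled to an equal sum per sample. Counts of replicates in a group disagreed beyond sampling noise (chi-square over degrees of freedom 15.9 to 27.7), so none was a copy. Total counts were 68267808 to 89245585 per sample, and no molecular identifiers were used. Figures were drawn with matplotlib 3.10.9.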

Additional observations from a re-analysis of the deposited data

How the results depend on the processing

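All 10 members stayed lower at an adjusted p below 0.05 under every alternative in which they were tested. With the filter at a mean FPKM of 5 the count was 9, because CNN1 was not tested. The number lower by more than 2-fold, 7 in the main fit, was 4 with library size alone, 4 with limma on log2(FPKM + 1), 4 with log2(FPKM + 0.1), 3 with log2(TPM + 1) and 4 with scaling on reference genes, and 7 to 8 with each sample left out. The members' median log2 fold change, -1.09 in the main fit, was -0.98 with library size alone, -1.002 with that filter, -0.98 and -0.99 with limma on log2(FPKM + 1) and log2(FPKM + 0.1), -0.86 with log2(TPM + 1) and -0.94 with reference genes, and -1.11 to -1.08 with each sample left out. Over all genes, the filter at 5 gave 2603 higher, 2621 lower and 73 lower by more than 2-fold, since fewer genes were tested. TPM gave 6934 higher, 2428 lower and 92 by more than 2-fold, and the last count was 292 in the main fit, 74 with log2(FPKM + 1), 179 with log2(FPKM + 0.1) and 186 with reference genes. The members' share of all counts differed by -0.554 percentage points, and by -0.589 without mitochondrial genes. For 4 shares and ratios that overlapped between groups, the sign turned when 1 sample was left out. The difference in the ACTB share of the actins ranged from -0.331 to 0.761 points (0.291 with all samples) and turned without PBS replicate 1, and that in the ACTG1 share ranged from -0.565 to 0.472 (-0.0989 with all) and turned without PBS replicate 1, rhSema3C replicate 2 or rhSema3C replicate 3. The difference in the log2 ratio of ACTG1 to ACTB ranged from -0.043 to 0.024 and turned without PBS replicate 1 or rhSema3C replicate 2, and that of TPM2 ranged from -0.067 to 0.017 and turned without PBS replicate 1. Where values moved, the cause was not tested. Same-numbered samples did not deviate together (correlations -0.004, 0.058 and -0.027, beside -0.07 to 0.071 for samples with unlike numbers). With groups of 3 this cannot show whether the cultures were paired. A replicate block gave 10 members lower, 7 of them by more than 2-fold, and 4221 genes higher and 4120 lower. Groups of 3 are too small for a search for single outlying samples.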
